A study of Rattus norvegicus with 6 samples.

Results

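The glucocorticoid receptor and genes that it is known to induce were followed in the inner epithelial layer of rat colon after melatonin or vehicle. The set has 8 members, chosen by name: the receptor Nr3c1, the induced genes Fkbp5, Tsc22d3, Cebpd, Cebpb, Errfi1 and Ddit4, and the enzyme Hsd11b1. Transcripts were matched to these symbols through the RefSeq rat annotation and the values of the transcripts of 1 gene were summed. Of the 8 members, 7 had a row among the 13104 genes and unmatched transcripts of the table, and Hsd11b1 had none, so it was not analysed here. All 7 passed the filter on low values.

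The animals were 6 adult male Wistar rats, all without a pineal gland, so the nightly melatonin rhythm of that gland was absent in both groups. Melatonin (1 mg/kg, intraperitoneal) was given to 3 animals, numbered 4 to 6, and 3 animals, numbered 1 to 3, received vehicle (2.5% ethanol in PBS). Injections were made as subjective night began, and tissue was taken 4 h later. The comparison asks which genes of the colonic epithelium differ within hours of the hormone. Each animal was 1 sample. Values are FPKM, fragments scaled to transcript length and to the mapped fragments of the library, so levels of different genes can be set side by side per length.

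The glucocorticoid receptor is a transcription factor that waits in the cytosol bound to HSP90 and its co-chaperones. Corticosterone, the main glucocorticoid of rats, binds it and sends it to the nucleus, where it raises the transcription of genes near its DNA sites. Corticosterone follows a daily rhythm and rises toward the active, dark phase in this nocturnal animal. In the colon, glucocorticoids act on ion transport and on inflammation, and the related mineralocorticoid receptor takes up aldosterone for sodium absorption. The enzyme of Hsd11b1 makes active corticosterone from its inactive form, and that of Hsd11b2 does the reverse.

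The depth of the libraries, estimated from the steps between low values, was 3300000 to 3610000 mapped fragments. RNA integrity numbers lay between 9.0 and 9.7. Epithelial markers summed to 13857, 15014 and 14958 FPKM in melatonin animals 4, 5 and 6 and to 14522, 13789 and 14795 in vehicle animals 1, 2 and 3, over 11 of 12 listed genes. The summed level of fibroblast markers was 8.25 to 12.2 FPKM after melatonin and 7.46 to 10 after vehicle, and that of endothelial markers was at most 4.91. Melatonin animal 6 stood farthest from the others, with a median absolute log2 difference of 0.223 from the other animals, where the remaining 5 lay between 0.14 and 0.166.

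None of the 7 members passed the test between the groups. limma on log2(FPKM + 1), adjusted over 10137 genes and unmatched transcripts, called 0 members and 0 features in either direction (background 0%). At an unadjusted p under 0.05 there was 1 member, Cebpd, or 14.3% of 7, against 3.75% of all features tested (1.82% higher and 1.92% lower after melatonin). The median log2 change of the 7 members was 0.13, with 5 positive and 2 negative, and that of all features tested was -0.02. The median of the members was 0.08 without melatonin animal 6 and 0.21 without melatonin animal 4 or without vehicle animal 3. No member had melatonin animals all above or all below the vehicle animals, which 8.38% of all tested features did. With 3 animals against 3, an exact permutation test run two-sided on 1 gene cannot go below p = 0.1.

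**Figure D1:**
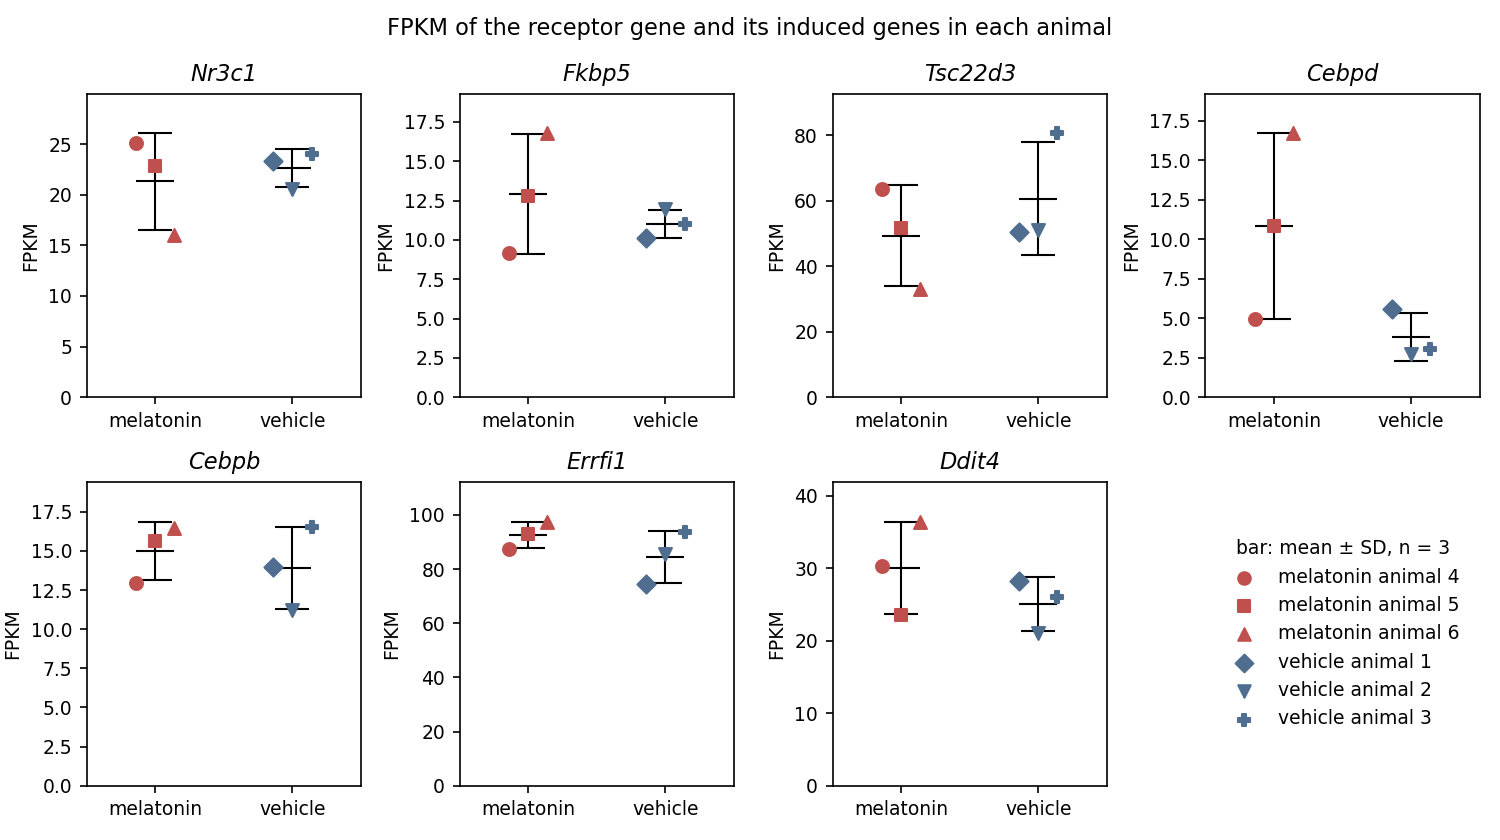
FPKM of the 7 measured members in each animal (y axis, linear from 0), melatonin left and vehicle right, with each animal as a symbol and bars for the mean ± SD of 3 animals. Melatonin animal 6 is the highest point for Cebpd (16.69), Fkbp5 (16.79), Errfi1 (97.29) and Ddit4 (36.32) and the lowest for Nr3c1 (15.98) and Tsc22d3 (33.05).

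The members covered a wide range of levels in this epithelium. Over all 6 animals, Errfi1 averaged 88.6 FPKM, Tsc22d3 55.0, Ddit4 27.6, Nr3c1 22.0, Cebpb 14.5, Fkbp5 12.0 and Cebpd 7.31. The range of each gene over the animals overlapped that of the next in this order, so no neighbours were apart beyond their spread between animals. Within each animal the order was steadier. Errfi1 stood first in 6 of 6 animals and Ddit4 above Nr3c1 in 6 of 6. In melatonin animal 6 the receptor was the lowest of the 7 genes, and in the other 5 animals it was the fourth.

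Nr3c1, the receptor itself, was listed at 25.13, 22.85 and 15.98 FPKM in melatonin animals 4, 5 and 6, against 23.33, 20.52 and 24.03 in vehicle animals 1, 2 and 3. Melatonin animals 4 and 5 lay within or just above the vehicle range, and animal 6 lay below it. The mean was 21.3 ± 4.76 after melatonin and 22.6 ± 1.86 after vehicle (SD, n = 3 each), a log2 change of -0.10 ± 0.18 (SE, 95% interval -0.51 to 0.30, limma adjusted p = 0.976). Without melatonin animal 6 the change was 0.08, so its direction rested on that animal. The estimated number of reads was 358 to 546 per library.

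Genes that assemble the receptor and handle its hormone were measured with 12 of 12 listed. None was called by limma, 4 had a positive and 8 a negative change, and the median was -0.04 (0.02 without vehicle animal 1). Hspa8, the constitutive HSP70 chaperone that loads the receptor, was listed at 1571.20, 1337.18 and 1558.45 FPKM in the melatonin animals, against 2604.35, 1932.09 and 1891.68 in the vehicle animals. It was the 1 gene of 12 with all melatonin animals below all vehicle animals, as 4.33% of all features were, and its log2 change was -0.51 ± 0.14 (limma adjusted p = 0.972). Dnaja1, an HSP40 co-chaperone, was listed at 37.67, 42.61 and 55.83 against 72.08, 59.84 and 50.43, with groups that overlap. Hsp90ab1, the constitutive HSP90, stood at 633.11, 972.53 and 869.34 against 811.24, 831.09 and 700.06, and Fkbp4, the co-chaperone that competes with the product of Fkbp5, at 98.81, 110.86 and 97.83 against 118.58, 106.34 and 91.61. Both had overlapping groups.

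The mineralocorticoid receptor Nr3c2 had higher levels than Nr3c1 in every animal. It was listed at 77.24, 64.67 and 71.94 FPKM in the melatonin animals, against 75.35, 80.58 and 73.08 in the vehicle animals. The ratio of Nr3c2 to Nr3c1 was 3.07, 2.83 and 4.50 after melatonin and 3.23, 3.93 and 3.04 after vehicle, highest in melatonin animal 6, where the glucocorticoid receptor was lowest. Hsd11b2, which inactivates corticosterone, was listed at 552.35, 500.81 and 418.41 FPKM against 425.50, 576.05 and 460.28, a log2 change of 0.01 (limma adjusted p = 0.996). H6pd, which feeds the enzyme of Hsd11b1 with its cofactor, was listed at 19.06, 18.76 and 14.22 against 20.80, 18.33 and 15.61. Abcb1a, a transporter that exports glucocorticoids, was listed at 21.03, 19.46 and 9.78 after melatonin, against 8.97, 47.93 and 46.78 after vehicle, so 1 vehicle animal lay below all melatonin animals and the others far above them.

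Coregulators that the receptor recruits were measured for 8 of 12 listed genes, while Ncoa1, Ncoa3, Ep300 and Med1 had no row. The median change was -0.07, with 2 positive and 6 negative and 0 called by limma. Nrip1, a corepressor of nuclear receptors, was listed at 32.19, 25.38 and 18.18 FPKM against 26.58, 27.52 and 25.76, a pattern with melatonin animal 6 lowest as for Nr3c1. Ncoa2, a coactivator of the receptor, stood at 26.14, 21.31 and 21.17 against 24.98, 28.44 and 24.09, and the acetyltransferase Crebbp at 22.14, 16.42 and 14.61 against 18.88, 23.68 and 17.06. In each of these the groups overlap. Without melatonin animal 6 the list's median was 0.10, so its direction rested on that animal.

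The steroid synthesis genes, which serve local glucocorticoid production where they are active, ranged widely in level. Cyp11b1, which makes the last step to corticosterone, was listed between 0 and 0.82 FPKM in both groups, and Cyp11a1, which opens the pathway, between 0 and 0.56. These 2 genes, with Star, Cyp11b2 and Nr5a1, did not reach the filter. Of the 7 tested, 2 had a positive and 5 a negative change, and 0 were called by limma (median -0.09, and 0.01 without vehicle animal 3). Cyp17a1, a steroid hydroxylase, was listed at 7.65, 5.28 and 6.95 FPKM in melatonin animals and at 7.96, 9.04 and 7.71 in vehicle animals, without overlap (log2 change -0.29 ± 0.18, limma adjusted p = 0.972). Por, the electron donor of such enzymes, also had no overlap, at 85.75, 73.71 and 79.23 against 87.72, 88.46 and 91.97. Both genes lay below in all melatonin animals, as 4.33% of all features tested did. Cyp21a1, a further steroid hydroxylase, stood at 3.12, 0.87 and 3.76 against 3.34, 0.79 and 1.61, and Hsd3b1, a steroid dehydrogenase, at 1.75, 1.14 and 3.90 against 2.13, 1.59 and 4.22, both with overlap.

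Fkbp5 and Tsc22d3 are among the best known direct targets of the receptor. Fkbp5 encodes a co-chaperone that lowers hormone binding by the receptor and so closes a feedback loop, and Tsc22d3 encodes GILZ, a leucine zipper protein that carries part of the anti-inflammatory action. The sequences before their start sites are shown because both genes are known targets of the receptor. The part of these sequences in the levels of either gene was not tested. They come from RefSeq, build GRCr8, a later build than the rn6 named for the data. RefSeq lists 1 start for Fkbp5 and 3 for Tsc22d3, and the middle and the most downstream of these are shown, in 250 bases before the start each. The FPKM table does not say which start the Tsc22d3 reads came from. Capitals mark 4 motifs, each on either strand. The first is ACANNNTGT, the core of the receptor's palindrome. The next is the TATA box, searched as TATAAA. The others are the CCAAT box, searched as ATTGG on the opposite strand, and the GC box, searched as GGGCGG.
Fkbp5, chr20:6543556-6543805, minus strand: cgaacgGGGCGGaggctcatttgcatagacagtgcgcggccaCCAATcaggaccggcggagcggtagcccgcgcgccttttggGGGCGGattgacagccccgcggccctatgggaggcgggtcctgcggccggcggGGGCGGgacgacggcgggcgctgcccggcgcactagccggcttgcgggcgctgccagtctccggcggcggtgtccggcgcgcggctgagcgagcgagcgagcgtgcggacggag
Tsc22d3, middle start, chrX:109065431-109065680, minus strand: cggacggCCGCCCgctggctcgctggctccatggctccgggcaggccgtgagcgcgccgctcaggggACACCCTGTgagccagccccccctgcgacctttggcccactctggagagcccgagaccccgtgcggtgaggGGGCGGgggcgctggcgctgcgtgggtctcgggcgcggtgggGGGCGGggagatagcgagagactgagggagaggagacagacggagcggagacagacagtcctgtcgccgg
Tsc22d3, most downstream start, chrX:109010035-109010284, minus strand: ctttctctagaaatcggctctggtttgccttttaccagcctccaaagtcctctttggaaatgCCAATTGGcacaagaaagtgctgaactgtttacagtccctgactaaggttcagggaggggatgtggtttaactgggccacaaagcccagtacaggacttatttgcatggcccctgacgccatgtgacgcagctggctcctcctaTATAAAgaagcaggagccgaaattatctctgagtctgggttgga
The single arm of the receptor palindrome, AGAACA, and the full palindrome of this arm, 3 free bases and its reverse complement were in none of the 9 windows listed for 6 of the members, where the arm is in 17.5% of all 33469 windows and the palindrome in 0.012%. The 9 windows belong to Nr3c1, Fkbp5, Tsc22d3, Cebpb, Errfi1 and Ddit4. The core ACANNNTGT was in 1 of the 9, 183 bases before the middle Tsc22d3 start, and in 5.81% of all windows. The Fkbp5 window has 76.0% G and C, with 3 GC boxes and a CCAAT box and no TATA box, and the most downstream Tsc22d3 window has 49.2%, with a TATA box 44 bases before the start and CCAAT boxes on both strands that overlap. The median over all promoters is 51.2%, and the shares over all windows are not matched for G and C content. Sites outside the 250 bases before each start were not searched. The CCAAT box is in 34% of all windows and the GC box in 30.5%. These matches describe letters and say nothing of binding in this tissue.

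Fkbp5 was listed at 9.16, 12.82 and 16.79 FPKM in melatonin animals 4, 5 and 6, against 10.14, 11.94 and 10.98 in vehicle animals 1, 2 and 3. Melatonin animal 4 lay below, and animals 5 and 6 above, all vehicle animals. The mean was 12.9 ± 3.82 after melatonin and 11 ± 0.901 after vehicle, a log2 change of 0.18 ± 0.21 (95% interval -0.31 to 0.66, limma adjusted p = 0.974). Without melatonin animal 6 the change was -0.02. The melatonin group was the more spread, with an SD of 29.5% of its mean, against 8.17% in the vehicle group.

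Tsc22d3 was listed at 63.57, 51.54 and 33.05 FPKM in the melatonin animals, against 50.45, 50.93 and 80.67 in the vehicle animals. Animal 6 was the lowest, vehicle animal 3 the highest, and the groups overlap. The mean was 49.4 ± 15.4 after melatonin and 60.7 ± 17.3 after vehicle, a log2 change of -0.31 ± 0.26 (95% interval -0.90 to 0.29, limma adjusted p = 0.972). The change was -0.05 without melatonin animal 6, -0.09 without vehicle animal 3 and -0.51 without melatonin animal 4. Relative to Tsc22d3, Fkbp5 stood at 0.144, 0.249 and 0.508 in the melatonin animals and at 0.201, 0.234 and 0.136 in the vehicle animals. Relative to the receptor, Fkbp5 stood at 0.365, 0.561 and 1.05 after melatonin and at 0.435, 0.582 and 0.457 after vehicle, and melatonin animal 6 was the highest in both ratios. Tsc22d3 over Nr3c1 was 2.53, 2.26 and 2.07 after melatonin and 2.16, 2.48 and 3.36 after vehicle. Both genes, and this ratio, were lowest in melatonin animal 6, which was the lowest for 33.6% of all features tested.

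The genes whose pattern over the 6 animals was most like that of Tsc22d3, by the root mean square difference of centred log2(FPKM + 1) among 7651 genes with a mean of at least 5 FPKM, were Kank3, Gstm1 and Creg1. Their differences were 0.08, 0.11 and 0.11. Kank3 was listed at 6.77, 6.57 and 3.24 FPKM in melatonin animals and 5.87, 5.83 and 9.96 in vehicle animals. Gstm1, a glutathione transferase, stood at 85.73, 66.48 and 43.25 against 63.59, 71.83 and 89.57, and Creg1, a secreted glycoprotein, at 44.88, 32.77 and 25.52 against 33.86, 35.30 and 49.35. All 3 share the low value of melatonin animal 6 and the high value of vehicle animal 3. They were picked for likeness to Tsc22d3 in these same animals, so this sharing is no separate finding.

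**Figure D2:**
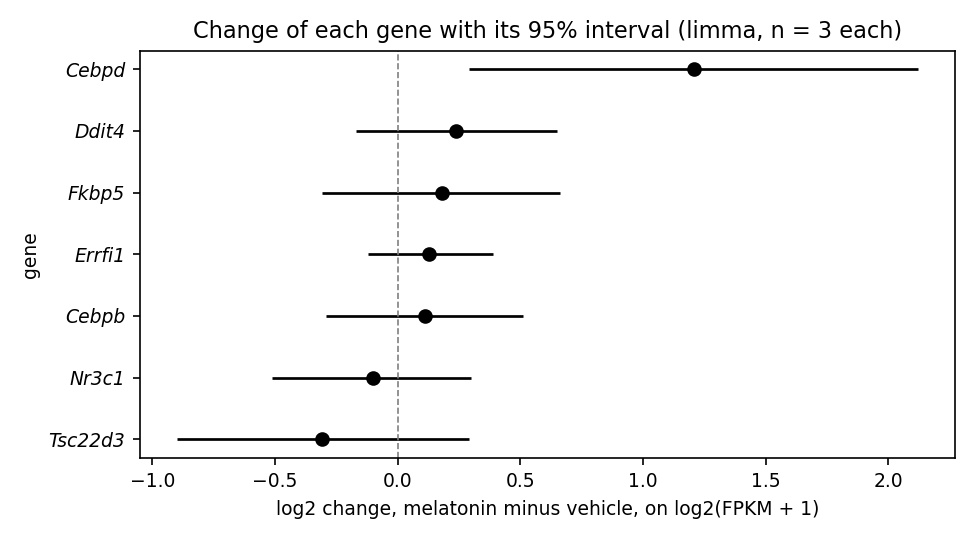
Log2 change of each of the 7 measured members, melatonin minus vehicle on log2(FPKM + 1) (x axis), with the 95% interval from limma (n = 3 animals each). The interval of Cebpd runs from 0.29 to 2.12 before any adjustment for the number of features tested, and the other 6 intervals include 0.

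Cebpd and Cebpb encode the C/EBP delta and beta transcription factors, which glucocorticoids and inflammatory cytokines both induce and which drive acute phase genes. Cebpd was listed at 4.93, 10.85 and 16.69 FPKM in melatonin animals 4, 5 and 6, against 5.57, 2.76 and 3.07 in vehicle animals 1, 2 and 3. Melatonin animals 5 and 6 lay above all vehicle animals, and animal 4 lay below vehicle animal 1. The mean was 10.8 ± 5.88 after melatonin and 3.80 ± 1.54 after vehicle, a ratio of 2.85. The log2 change was 1.21 ± 0.40 (95% interval 0.29 to 2.12, limma unadjusted p = 0.0158, adjusted p = 0.972), and it ranked 110 of 10137 by p. The exact permutation p was 0.20 (two-sided). Over 14 alternatives, the limma adjusted p for Cebpd lay between 0.19 and 1, the lowest without melatonin animal 4, where the change was 1.64. The change was 0.85 without melatonin animal 6. Values this low rest on few reads, an estimated 19, 43 and 66 in the melatonin libraries and 22, 10 and 12 in the vehicle libraries. In the authors' deposited table the log2 ratio of Cebpd is 1.51, the largest among the members, and 119 of 13647 transcripts have a higher score than its 0.717.

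Cebpb has 3 RefSeq transcripts in the table with the same length and the same value in every animal. Among other pairs of identical rows, 16 of 28 values under 1.6 estimated reads lay within 0.15 of 0.5 or 1.5 reads and 12 within 0.15 of 1 read, as reads divided between the rows would give, so the 3 values were summed. Summed, Cebpb was listed at 12.93, 15.66 and 16.47 FPKM in the melatonin animals, against 13.98, 11.22 and 16.50 in the vehicle animals. The groups overlap, with both extremes among the vehicle animals. The mean was 15.0 ± 1.85 after melatonin and 13.9 ± 2.64 after vehicle, a log2 change of 0.11 ± 0.17 (95% interval -0.29 to 0.51, limma adjusted p = 0.974). Without vehicle animal 2 the change was -0.02. The ratio of Cebpd to Cebpb was 0.381, 0.693 and 1.01 after melatonin and 0.398, 0.246 and 0.186 after vehicle.

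Other C/EBP genes and their partners were near the vehicle level. Of 6 tested, 3 had a positive and 3 a negative change (median -0.02), and 0 were called by limma. Cebpa, which drives differentiation in liver, fat and myeloid cells, was listed at 60.52, 50.76 and 37.36 FPKM against 55.64, 39.76 and 63.72. Cebpg, a family member without an activation domain, stood at 54.45, 54.50 and 42.83 against 55.53, 44.17 and 58.97, and Ddit3, the stress-induced member CHOP, at 20.35, 14.33 and 14.72 against 16.50, 22.51 and 14.01. Atf4, a stress factor that pairs with C/EBP proteins, stood at 258.51, 269.37 and 264.58 against 248.73, 254.21 and 246.09. It was the 1 gene of 6 with melatonin animals all above vehicle animals, as 4.04% of all features were, and its log2 change was 0.08 ± 0.08 (limma adjusted p = 0.972).

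Acute phase genes had a median change of 0.38 over 6 tested, with 4 positive and 2 negative and 0 called by limma, while 5 with a row did not reach the filter. The list's median difference from the vehicle mean was 0.04, 0.34 and 0.77 in melatonin animals 4, 5 and 6, the order that Cebpd had, and 0.20, -0.20 and -0.01 in the vehicle animals. The median change was 0.08 without melatonin animal 6, 0.12 without vehicle animal 3 and 0.75 without vehicle animal 1. Serpina3n, a protease inhibitor of the acute phase with near-identical copies that may share its reads, was listed at 46.54, 71.03 and 46.97 FPKM against 7.73, 9.33 and 26.23. Slpi, a mucosal protease inhibitor, stood at 8.11, 5.33 and 8.01 against 3.64, 2.42 and 2.58. These 2 genes lay above in all melatonin animals, as 4.04% of all features did, and they did not share the order of Cebpd, since animal 4 was close to animal 6. Lbp was the only tested gene of the list that did share that order over the melatonin animals. Its values were 18.16, 50.53 and 241.19 FPKM against 129.65, 36.01 and 15.62, with overlap. Pigr, the immunoglobulin transporter, had the reverse order there, at 2176.13, 1789.16 and 1703.38 against 2047.64, 2075.92 and 1948.63. Il1rn, the interleukin 1 receptor antagonist, had neither order, at 6.88, 9.77 and 8.88 against 7.83, 6.09 and 7.21. Nor did Cd14, at 122.24, 95.01 and 134.01 against 150.15, 91.88 and 142.96. In Pigr, Il1rn and Cd14 the groups overlap.

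The genes most like Cebpd in pattern over the 6 animals were Irf7, Rtp4 and Tm4sf20, with root mean square differences of 0.25, 0.27 and 0.29. Irf7, a master regulator of the type I interferon response, was listed at 16.17, 53.54 and 77.73 FPKM in melatonin animals 4, 5 and 6 and at 27.24, 16.58 and 18.84 in vehicle animals 1, 2 and 3. Rtp4, an interferon-induced chaperone of receptors, stood at 10.08, 22.91 and 25.54 against 14.02, 9.22 and 8.21, and Tm4sf20, a membrane protein, at 86.77, 157.85 and 276.95 against 125.21, 92.94 and 68.08. All 3 were higher in animals 5 and 6 than in every vehicle animal, and highest among the vehicle animals in animal 1, as Cebpd was. They were picked for likeness to Cebpd in these same animals, so the shared pattern is no separate finding.

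Interferon-stimulated genes as a list had a median change of 0.90 over 15 tested, all positive and 0 called by limma. That median was 0.50 without melatonin animal 5. Their median difference from the vehicle mean was -0.07, 1.35 and 1.24 in melatonin animals 4, 5 and 6 and 0.13, -0.15 and -0.08 in the vehicle animals. T and NK cell markers summed to 19.4, 33.3 and 51.2 FPKM over 10 of 10 genes in the melatonin animals and to 31.4, 20.5 and 10.6 in the vehicle animals, and Cd3d, Cd2, Gzmb and Nkg7 were at 0 in at least 1 animal. Macrophage markers, 9 of 10 with a row, summed to 47.5, 37.8 and 28.9 against 36.9, 26.4 and 32.2. The lymphocyte sum thus had the order of Cebpd over the melatonin animals, and the macrophage sum had the opposite order there. Single markers did not all follow their sum. Cd7, the largest lymphocyte marker, followed it at 9.77, 14.54 and 23.50 in the melatonin animals, and Nkg7, at 1.84, 6.09 and 2.15, did not. The macrophage marker Lyz2 followed its sum at 15.31, 6.68 and 4.65, and Mrc1, at 0.72, 1.82 and 10.74, had the order of Cebpd. Both sums had their maximum among the vehicle animals in animal 1, as Cebpd did. Over all vehicle animals the macrophage sum had the order of Cebpd, and the lymphocyte sum did not. The part of either in the Cebpd values was not tested, and in such bulk tissue fewer cells of a type and less RNA per cell cannot be told apart.

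Errfi1 encodes MIG6, a feedback inhibitor of the EGF receptor that glucocorticoids and EGF both induce. Its promoter window is printed beside that of Cebpb, because these are the members whose windows hold TATAAA close before their single listed start, with the same capitals as above.
Errfi1, chr5:166606591-166606840, plus strand: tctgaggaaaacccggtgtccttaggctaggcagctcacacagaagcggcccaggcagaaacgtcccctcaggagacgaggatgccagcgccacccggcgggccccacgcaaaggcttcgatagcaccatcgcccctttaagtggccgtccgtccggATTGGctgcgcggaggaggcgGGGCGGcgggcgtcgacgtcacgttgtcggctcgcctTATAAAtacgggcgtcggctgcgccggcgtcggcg
Cebpb, chr3:176816755-176817004, plus strand: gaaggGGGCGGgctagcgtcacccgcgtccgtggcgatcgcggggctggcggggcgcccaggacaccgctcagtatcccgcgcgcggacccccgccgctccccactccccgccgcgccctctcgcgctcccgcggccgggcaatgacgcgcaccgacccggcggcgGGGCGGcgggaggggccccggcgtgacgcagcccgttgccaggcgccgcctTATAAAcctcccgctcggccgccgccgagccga
The TATA box lies 35 bases before the start in Errfi1 and 33 in Cebpb, and 12.9% of all windows hold this motif. Errfi1 was the most abundant member and, by its log2 span of 0.38 over the animals, the least variable of the 7. It was listed at 87.45, 93.01 and 97.29 FPKM in the melatonin animals, against 74.49, 85.46 and 93.65 in the vehicle animals. The groups overlap, since vehicle animal 3 lay above melatonin animals 4 and 5. The mean was 92.6 ± 4.93 after melatonin and 84.5 ± 9.61 after vehicle, a log2 change of 0.13 ± 0.11 (95% interval -0.12 to 0.39, limma adjusted p = 0.972). The change was 0.05 without vehicle animal 1 and 0.21 without vehicle animal 3.

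The EGF receptor family and its feedback genes had 10 positive changes and 1 negative among 11 tested, a median of 0.15, and 0 were called by limma. The median was 0.27 without melatonin animal 4 or without vehicle animal 3. Egfr was listed at 7.36, 7.42 and 10.96 FPKM in the melatonin animals and at 6.44, 6.28 and 6.30 in the vehicle animals, without overlap (log2 change 0.36 ± 0.19, limma adjusted p = 0.972). The ligand genes Areg and Ereg stood at 3.33, 6.97 and 10.23 against 2.0, 3.00 and 5.31, and at 1.79, 2.44 and 3.15 against 1.75, 1.53 and 0.35. A further ligand gene, Hbegf, stood at 4.73, 4.60 and 9.40 against 3.51, 1.21 and 6.53. Each of these 4 genes was highest in melatonin animal 6. In all, 3 of 11 genes had melatonin animals all above vehicle animals, Egfr, Ereg and Erbb3, the last at 64.97, 73.29 and 65.88 against 64.52, 60.24 and 58.67. Over all features tested, 4.04% lay above in this way. 

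Ddit4 encodes REDD1, an inhibitor of mTORC1 that glucocorticoids, hypoxia and energy stress all induce. It was listed at 30.27, 23.56 and 36.32 FPKM in the melatonin animals, against 28.22, 21.00 and 26.05 in the vehicle animals. Melatonin animals 4 and 6 lay above all vehicle animals and animal 5 lay among them. The mean was 30.1 ± 6.38 after melatonin and 25.1 ± 3.70 after vehicle, a log2 change of 0.24 ± 0.18 (95% interval -0.17 to 0.65, limma adjusted p = 0.972). The change was 0.10 without melatonin animal 6, 0.12 without vehicle animal 2, 0.40 without melatonin animal 5 and 0.05 with sample quality weights. The 10 tested genes of mTORC1 control had a median of 0.08, 6 positive and 4 negative and 0 called by limma. That median was 0.04 without melatonin animal 4 or 5 and without vehicle animal 1 or 2. Sesn3, a sestrin that restrains mTORC1, was listed at 9.63, 6.85 and 7.93 against 3.87, 5.39 and 6.66, without overlap (log2 change 0.55 ± 0.22, limma adjusted p = 0.972), and its relative Sesn2 at 21.43, 19.47 and 12.77 against 20.80, 17.58 and 24.96. Rheb, the GTPase that activates mTORC1, stood at 58.00, 57.40 and 57.55 against 59.77, 68.95 and 68.47, below in every melatonin animal. Of all features tested, 4.04% lay above in all melatonin animals, as Sesn3 did, and 4.33% below, as Rheb did. The mTORC1 subunit gene Rptor stood at 10.27, 11.15 and 8.92 against 8.72, 8.74 and 9.28, with overlap.

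**Figure D3:**
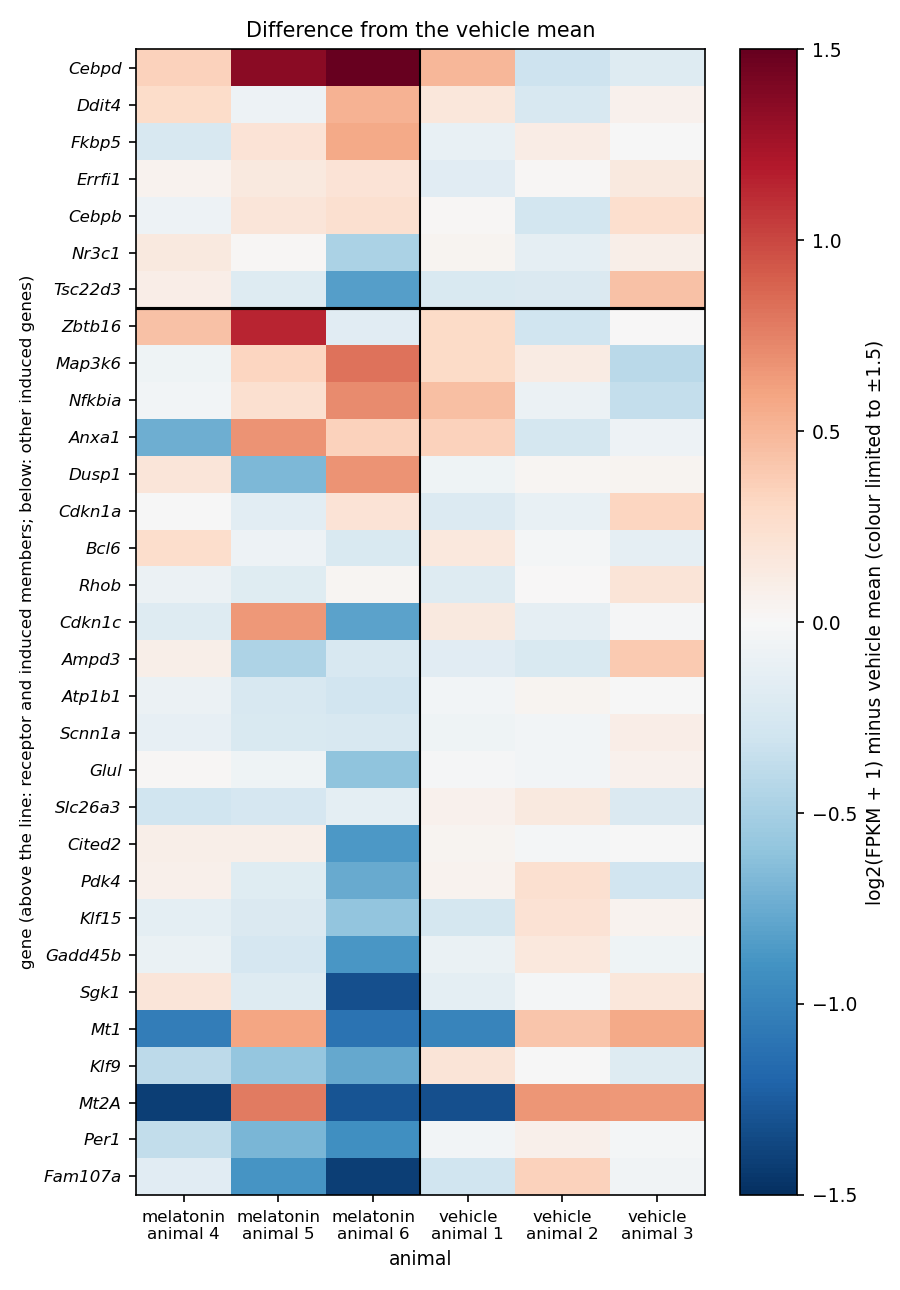
Difference of log2(FPKM + 1) from the vehicle mean in each animal (columns, melatonin left of vehicle), for the 7 measured members above the line and 24 other glucocorticoid-induced genes below it, each ordered by log2 change. Colours are limited to ±1.5. Cebpd is darkest red in melatonin animals 5 and 6 (10.85 and 16.69 FPKM), Sgk1 and Fam107a are dark blue in melatonin animal 6 (208.26 and 6.02 FPKM), and Mt1 and Mt2A alternate in both groups.

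A wider list of genes known from other tissues or cells to be induced by glucocorticoids held 25 tested genes besides the members. Of these 6 had a positive and 19 a negative change, the median was -0.20, and 0 were called by limma. The list's median difference from the vehicle mean was -0.09, -0.18 and -0.28 in melatonin animals 4, 5 and 6 and -0.04, 0.00 and 0.00 in the vehicle animals. The split was also 6 positive to 19 negative without melatonin animal 6, with a median of -0.14. All melatonin animals lay below all vehicle animals for 6 genes, among them Per1, Klf9, Gadd45b, Scnn1a and Atp1b1, and above them for 0, where 4.33% and 4.04% of all features tested did so. The list was drawn up with earlier results on several of these genes known, so its direction is no independent evidence.

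Per1, a clock gene with receptor sites in its promoter, was listed at 37.35, 29.97 and 25.33 FPKM in the melatonin animals, against 47.22, 51.43 and 47.52 in the vehicle animals (log2 change -0.66 ± 0.15, limma adjusted p = 0.972). Klf9, a Kruppel-like factor induced by glucocorticoid and thyroid hormone, stood at 23.47, 20.52 and 17.87 against 35.91, 31.22 and 27.14. Fam107a, an actin-binding protein induced by glucocorticoids and stress, stood at 15.67, 9.17 and 6.02 against 14.24, 22.86 and 17.12. Within the melatonin group these 3 genes share 1 order, animal 4 highest and animal 6 lowest. Tsc22d3 and Nr3c1 had it too, and Fkbp5, Cebpd, Cebpb and Errfi1 had it reversed. The median-of-ratios factors of the libraries also fell from animal 4 to animal 6, at 1.038, 1.007 and 0.937. Over all features tested, animal 4 was the highest of 6 for 21.5% and animal 6 the lowest for 33.6%. The order therefore does not set these genes apart.

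Sgk1, the kinase that glucocorticoids and aldosterone induce to raise sodium channel activity, was listed at 588.40, 454.69 and 208.26 FPKM against 471.27, 510.17 and 586.84, and Glul, glutamine synthetase, at 723.47, 684.29 and 471.74 against 707.20, 696.27 and 746.14. In both, animal 6 was the lowest of 6 and the other melatonin animals lay near the vehicle range. Atp1b1, a sodium pump subunit, stood at 1516.24, 1366.01 and 1325.22 against 1571.58, 1661.89 and 1608.13. Some induced genes went the other way in animal 6. Nfkbia, the NF-kappaB inhibitor, was listed at 38.14, 46.59 and 65.10 against 54.01, 37.04 and 30.49, the phosphatase gene Dusp1 at 39.57, 21.34 and 55.83 against 33.17, 35.38 and 35.61, and the kinase gene Map3k6 at 3.66, 5.11 and 7.59 against 4.94, 4.32 and 2.69. The metallothionein gene Mt1 was listed at 263.72, 821.44 and 251.33 against 273.90, 727.87 and 808.22, so low and high animals occurred in both groups.

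**Figure D4:**
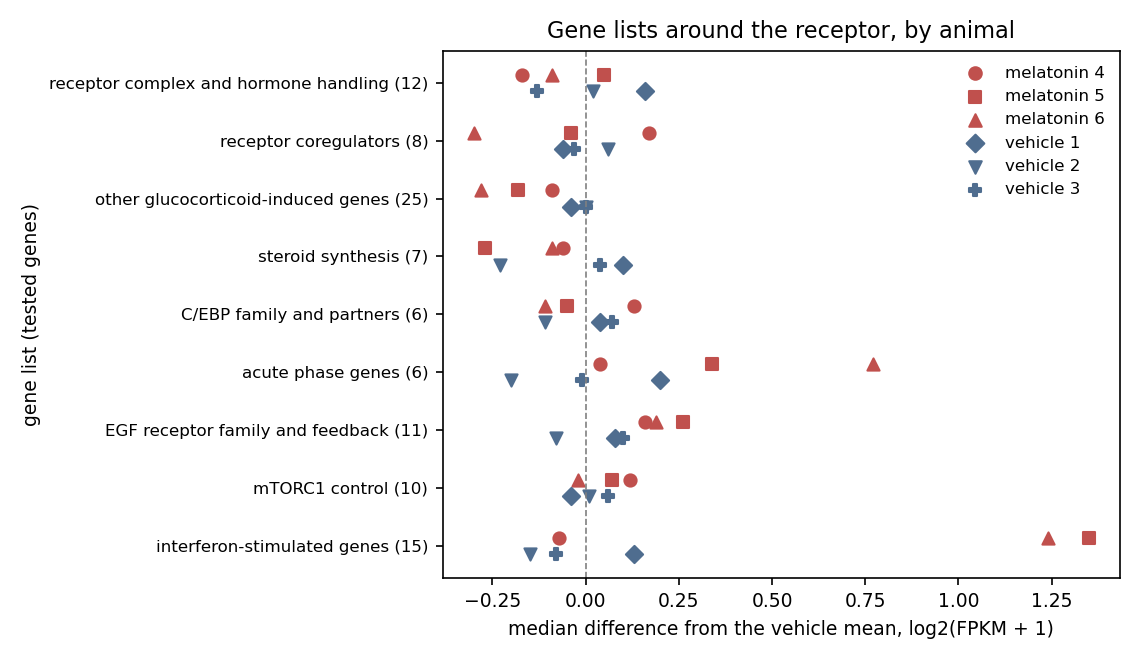
Median difference from the vehicle mean on log2(FPKM + 1) (x axis) in each animal, for 9 gene lists around the receptor, with melatonin animals above vehicle animals in each row and the number of tested genes in brackets. The interferon-stimulated genes stand at 1.35 and 1.24 in melatonin animals 5 and 6, and the other glucocorticoid-induced genes at -0.09 to -0.28 in the melatonin animals.

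Across the members, melatonin animal 6 held an extreme value for 6 of 7 genes, 4 highest and 2 lowest. It held an extreme for 47.9% of all features tested, more often the lowest (33.6%) than the highest (14.3%). After median-of-ratios scaling it was extreme for 7 of 7 members and for 46.4% of features, with 23.6% highest and 22.8% lowest. Melatonin animal 5 held no extreme among the members. Melatonin animal 6 was also the animal that stood farthest from the others over the whole table, and the part of this in the members' values was not tested.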

How the data were processed

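RNA enriched with oligo(dT) from 3 melatonin and 3 vehicle animals was sequenced, per the labels' protocols. These describe no step that marks strand, so antisense partners are not told apart. BWA 0.7.10-r789, Bowtie2, RSEM and build rn6 are named in the submitters' processing notes, without roles. The authors deposited FPKM values per RefSeq transcript and animal. The authors' deposited table also has a log2 ratio of group means and a probability-like score, whose tool is not stated.

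RefSeq accessions (GRCr8) matched 12883 of 13647 transcripts, summed to 12340 genes, and 764 unmatched transcripts were kept. limma 3.58.1 (R 4.3.3) tested the 10137 features averaging 1 FPKM or more on log2(FPKM + 1), two-sided, with a mean trend and Benjamini-Hochberg adjustment at 0.05. This scale understates changes of low genes. The procedure was tested on simulated data. The limma p-values weigh the group difference against the spread between these 6 animals within their groups. limma moderates that spread with the spread of the other features.

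Reads were estimated from steps of low values. With 36 bases off each transcript length, 85.9% to 90.3% of short transcripts' values fell within 0.1 of a whole read. Genes were named by rule: all members, up to 4 genes of smallest p in each of 9 pathway lists, and the 3 genes most alike for members spanning more than 1 (log2). Other list genes were named after their values were seen. Members, lists and tests were chosen with earlier results of these data known. Alternatives were a pseudocount of 0.1, 2 other filters, 2 scalings, single transcripts, leaving out each animal, voom on estimated reads, and sample weights. Single values of some list genes are not reported here.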

Additional observations from a re-analysis of the deposited data

How the results depend on the processing

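Of 98 values of the 7 members under 14 alternatives, 95 kept their direction and their side of the threshold, and 3 small changes turned sign: Nr3c1 at 0.08 and Fkbp5 at -0.02 without melatonin animal 6, and Cebpb at -0.02 without vehicle animal 2. With 1 animal left out, Nr3c1 lay between -0.23 and 0.08, Fkbp5 between -0.02 and 0.39, Cebpb between -0.02 and 0.24 and Cebpd between 0.85 and 1.64. The number of features called higher by limma was 0 as reported and 0 to 4 with 1 animal left out, with 4 without melatonin animal 4 and 3 without vehicle animal 1. No member was called under any of these alternatives. The number called lower was 0 with any 1 animal left out and 1 with no filter on low values. With all animals, an unadjusted p under 0.05 was reached by 185 features that were higher and 195 that were lower. The cause of these differences was not tested. No paired analysis was possible because the melatonin and vehicle animals share no replicate numbers. Estimated reads limit Cebpd most, at 10 to 66 per library.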
